A study of Rattus norvegicus with 16 samples.

Results

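Transcripts of leukocyte surface proteins were followed in the whole blood of 16 rats for the genes Cd97, Cd44, Cd48, Cd300a, Cd84, Ptprc, Selplg, Spn and Cd53. They were taken by gene symbol as 9 of the 18031 genes that all 16 count files list, and each symbol had 1 entry. All 16 libraries belong to 1 group of saline controls, so there was no treated group, and the question was which of these genes varied among animals with myeloid genes and which with lymphoid genes. The animals were male Sprague-Dawley rats aged 85 to 90 days, which had 4 injections of saline at 1 ml/kg, spaced by 2 h, went without food and water while they were dosed, and were killed 3 h after the last injection. Blood was drawn by needle from the heart and frozen, globin mRNA was depleted, and polyadenylated RNA was sequenced. The 16 samples are separate animals, numbered 1 to 16 in the labels. Of the names, Selplg encodes a ligand of the selectins and not a selectin, so the selectin genes Selp and Sele were examined as partners of it.

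The proteins of these genes sit on the surface of most white blood cells, and the amount differs between classes of cell. Ptprc encodes CD45, a receptor tyrosine phosphatase that acts on Src family kinases. Selplg encodes PSGL-1 and Spn encodes CD43, both long sialylated mucins, of which PSGL-1 lets leukocytes roll on selectins of the vessel wall and platelets. Cd44 encodes the main hyaluronan receptor, which is tied to the actin skeleton by ezrin, radixin and moesin. Cd97 (also named Adgre5) encodes an adhesion G protein-coupled receptor that binds CD55, and Cd53 encodes a leukocyte tetraspanin. Cd48 and Cd84 encode receptors of the SLAM family, and Cd300a encodes an inhibitory receptor that recruits SHP phosphatases.

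The libraries held 21466776 to 31189549 estimated counts. A level is given as a normalized count, which is the rounded estimated count divided by a DESeq2 size factor, and levels are not compared between genes because lengths were not used. The level of a cell class is the mean log2(normalized count + 1) over its list of marker genes. The myeloid level joins 11 neutrophil and 11 monocyte genes, and the lymphoid level joins 12 T cell and 11 B cell genes. Among the 7 blood cell lists the neutrophil level spread most, from 9.62 in control 6 to 14.69 in control 8. The highest library lay above the lowest by a median of 45.8-fold over the 11 neutrophil genes (10.5-fold to 1228-fold), against 4.69-fold over the 9 monocyte genes with counts in every library (1.87-fold to 14.2-fold), 2.64-fold over the 12 T cell genes (1.91-fold to 3.39-fold) and 3.99-fold over the 11 B cell genes (2.89-fold to 19.4-fold). The myeloid and lymphoid levels moved against each other across animals (Pearson's r = -0.80 and Spearman's rho = -0.86, n = 16, two-sided permutation p = 5e-05 and 8e-05, adjusted over 3 relations 1.5e-04 and 2.4e-04). Without controls 6 and 8 this r was -0.72, and after centring within the run codes of the file names it was -0.93. The parts that make up each level moved together less. The neutrophil and monocyte levels had r = 0.53 (permutation adjusted p = 0.051, rho = 0.57 with adjusted p = 0.034). The T cell and B cell levels had r = 0.28 (permutation adjusted p = 0.286, rho = 0.18 with adjusted p = 0.495). The joined levels are thus averages over classes that can differ. Because the samples are bulk RNA, fewer cells of a class and less RNA per cell cannot be told apart. Levels are also relative to the other RNA of the same library, so a larger share of 1 class can lower another. The permutation test takes no account of this, and it cannot be told apart from a fall of the class itself. Controls 2, 8, 10 and 12 stood apart by genes of other tissues. The liver level was 14.54 in control 2 and 10.77 in control 8, and also 8.52 in control 7 and 7.09 in control 5, against a median of 3.13 over all libraries, the heart level was 5.32 in control 10 against a median of 1.62, and the thymus and fat levels were 9.11 and 8.60 in control 12 against medians of 4.45 and 3.06. Results are therefore also given without controls 2, 8, 10 and 12, which leaves controls 5 and 7 in.

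All 9 genes had counts in every library, from a lowest of 60 counts (Cd84) to a highest of 37802 counts (Ptprc). Ptprc (ENSRNOG00000000655) was the steadiest, with 25198 ± 2784 normalized counts (mean ± SD, n = 16). Its lowest value was 21330 in control 5, its median 24642 and its highest 31723 in control 9, a range of 1.49-fold. The coefficient of variation (CV) of Ptprc was 11.1%, and 0 of the 194 genes with a mean within 2-fold of it had a lower CV, their median being 40.9%. Across all 8672 genes with a mean of at least 100 normalized counts, 2.48% had a lower CV than Ptprc.

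The mucin genes covered wider ranges. Selplg (ENSRNOG00000000699) had 4253 ± 1264 normalized counts, with 2071 in control 2 as the lowest, a median of 4308 and 6384 in control 1 as the highest. Spn (ENSRNOG00000036711) had 659 ± 213 normalized counts, with 293.1 in control 8 as the lowest, a median of 651.6 and 1116 in control 6 as the highest. The libraries at the ends of the Spn range were thus the ones at the ends of the neutrophil level, in the opposite order. The CV was 29.7% for Selplg and 32.4% for Spn.

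Cd44 (ENSRNOG00000006094) had 7852 ± 2520 normalized counts, from 3879 in control 6 through a median of 7993 to 12044 in control 8. Cd97 (ENSRNOG00000004489) had the second widest spread of the 9 genes, with 16412 ± 7600 normalized counts, a lowest value of 7336 in control 6, a median of 15813 and a highest value of 31656 in control 8. Cd53 (ENSRNOG00000017874) had 14658 ± 5154 normalized counts, from 7711 in control 4 through a median of 13353 to 27215 in control 8. The same animal, control 8, was thus highest for each of these 3 genes. Their CVs were 32.1%, 46.3% and 35.2%.

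Cd48 (ENSRNOG00000004737) had 4000 ± 1001 normalized counts (SD, n = 16), from 2208 in control 4 through a median of 4008 to 6382 in control 8. Cd300a (ENSRNOG00000024399) had 931.6 ± 352 normalized counts, from 448.8 in control 6 through a median of 942.1 to 1464 in control 8. Cd84 (ENSRNOG00000022884) had the widest spread, with 254 ± 132 normalized counts, 93.4 in control 10, a median of 212.8 and 640.6 in control 8, a range of 6.86-fold. The next highest value of Cd84 was 366.9, in control 2, so control 8 stood well clear of the other libraries for this gene. The CV of Cd84 was 51.8%, and 90.0% of the 3957 genes with a mean within 2-fold of it had a lower CV. Control 8 was the highest library for 6 of the 9 genes and the lowest for Spn, while control 6 was the lowest for Cd97, Cd44 and Cd300a and the highest for Spn. Control 12 was below the median in all 9 genes.

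**Figure D1:**
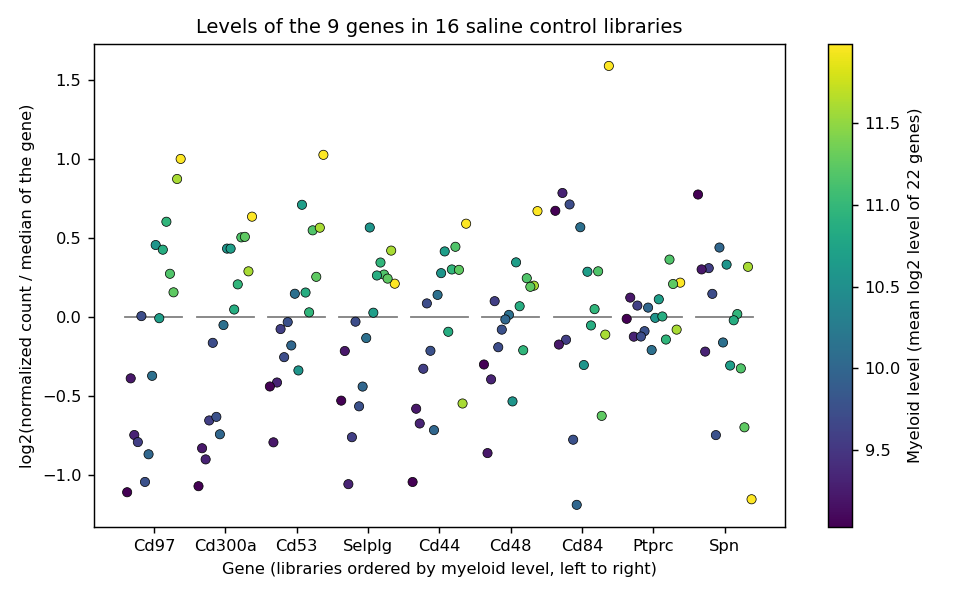
Level of each gene in each of the 16 libraries as log2 of the normalized count over the median of that gene (vertical axis). Points of a gene run from the library with the lowest myeloid level on the left to the highest on the right and are coloured by it. Points of Cd97, Cd300a and Cd53 climb from left to right, those of Ptprc stay in a narrow band (1.49-fold), and those of Spn end at their lowest in control 8.

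Of the 9 genes, 6 rose with the myeloid level and 0 fell with it. The slope is the log2 change in count for a myeloid level higher by 1 SD, from edgeR's quasi-likelihood test fitted over all genes with Benjamini-Hochberg adjustment, and a call is an adjusted p under 0.05. Cd97 had the steepest slope, 0.59 ± 0.089 (SE, n = 16, adjusted p = 1.02e-04), which is 1.51-fold per SD. Cd300a followed with 0.54 ± 0.069 (adjusted p = 1.74e-05) and Cd53 with 0.41 ± 0.071 (adjusted p = 4.21e-04). The slope was 0.37 ± 0.081 for Selplg (adjusted p = 0.00344), 0.35 ± 0.094 for Cd44 (adjusted p = 0.0132) and 0.26 ± 0.069 for Cd48 (adjusted p = 0.0144). The other 3 genes did not pass the test. Cd84 had 0.11 ± 0.15 (adjusted p = 0.631), Ptprc 0.063 ± 0.056 (adjusted p = 0.446) and Spn -0.24 ± 0.11 (adjusted p = 0.124). Of all 12717 genes tested, 21.1% were called, 13.7% positive and 7.42% negative, so 6 of 9 is above the background share. The median slope was 0.35 over the 9 genes and -0.044 over all genes. The calls of Cd97, Cd300a, Selplg and Cd53 held without controls 2, 8, 10 and 12, and Cd44 (0.30, adjusted p = 0.147) and Cd48 (0.21, adjusted p = 0.182) lost theirs. Scaled by total count in place of TMM, Cd97, Cd300a and Cd53 kept their calls and Selplg, Cd44 and Cd48 did not (adjusted p = 0.126, 0.154 and 0.212). With run code in the fit, 5 of the 6 were called and Cd48 was not (0.27, adjusted p = 0.0622), and leaving out control 8 alone also ended its call (0.20, adjusted p = 0.0911).

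Against the lymphoid level the order turned over. The 6 genes that rose with the myeloid level fell as the lymphoid level rose, with slopes of -0.52 ± 0.13 for Cd97 (edgeR adjusted p = 0.00772), -0.48 ± 0.096 for Cd300a (adjusted p = 0.0024), -0.36 ± 0.077 for Cd53 (adjusted p = 0.00325), -0.34 ± 0.092 for Cd44 (adjusted p = 0.014), -0.31 ± 0.11 for Selplg (adjusted p = 0.038) and -0.21 ± 0.072 for Cd48 (adjusted p = 0.0415). No gene of the 9 rose with the lymphoid level at this threshold, at which 26.9% of 13392 genes were called, 15.1% positive and 11.8% negative. Spn came nearest, with 0.30 ± 0.12 (adjusted p = 0.0604), and it was called positive by DESeq2 (0.29, adjusted p = 0.0277). The slope of Cd84 was -0.26 ± 0.13 (adjusted p = 0.154) and that of Ptprc -0.057 ± 0.054 (adjusted p = 0.453). Only Cd300a of the 9 held its call without controls 2, 8, 10 and 12, when 3.43% of all genes tested were called. Leaving out 1 library ended the call of Cd48 for each of controls 2, 5, 6, 7, 8, 9, 14, 15 and 16 (adjusted p 0.0501 to 0.286) and that of Selplg for each of controls 2, 3, 4, 6, 9, 12 and 14 (adjusted p 0.0511 to 0.0956), while Spn became called without control 1, 2, 12 or 14 (adjusted p 0.0148 to 0.0498). Run code in the fit ended the call of Cd48 (adjusted p = 0.121). With total count scaling none of the 6 was called (adjusted p 0.0925 to 0.665), and Spn was (0.44, adjusted p = 0.0309). Under that scaling the median slope of all genes moved from 0.043 to 0.18, against which Cd97 at -0.39 and Cd300a at -0.35 lay lower.

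**Figure D2:**
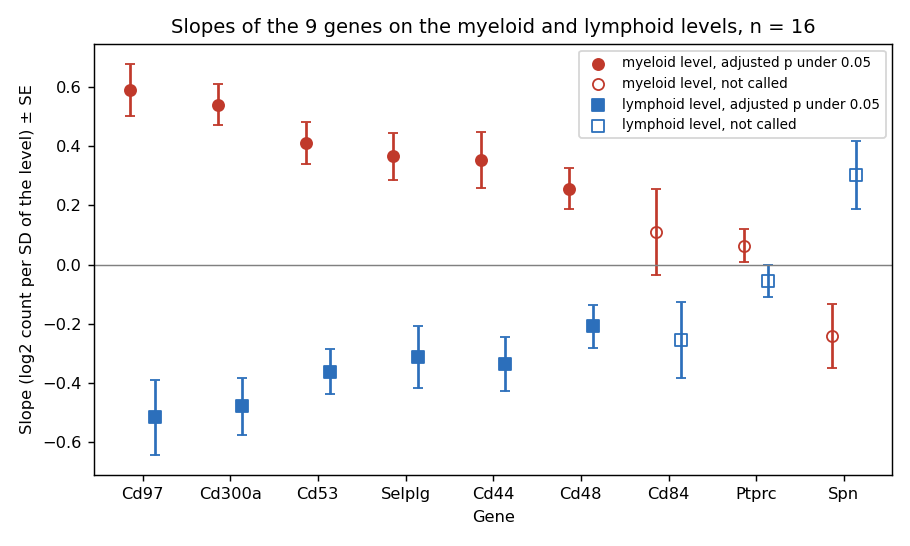
Slope of each gene (vertical axis, log2 count per SD of the level, bars ± SE) on the myeloid level (red circles) and the lymphoid level (blue squares) over 16 libraries. Filled symbols passed an adjusted p under 0.05. The 6 genes Cd97, Cd300a, Cd53, Selplg, Cd44 and Cd48 have filled red symbols above 0 and filled blue symbols below 0, and Cd84, Ptprc and Spn have open symbols.

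The direct comparison of both slopes in 1 fit gave the same 6 genes. Because the levels moved against each other (r = -0.80), this contrast was not independent of the separate fits. The myeloid slope minus the lymphoid slope was 0.61 ± 0.095 for Cd97 (edgeR adjusted p = 2.26e-04), 0.57 ± 0.071 for Cd300a (adjusted p = 2.5e-05), 0.43 ± 0.07 for Cd53 (adjusted p = 3.18e-04), 0.38 ± 0.096 for Cd44 (adjusted p = 0.00779), 0.37 ± 0.09 for Selplg (adjusted p = 0.00632) and 0.26 ± 0.072 for Cd48 (adjusted p = 0.0135). The difference was 0.17 ± 0.13 for Cd84 (adjusted p = 0.356), 0.066 ± 0.056 for Ptprc (adjusted p = 0.398) and -0.31 ± 0.12 for Spn (adjusted p = 0.0617). The call of Cd48 was lost without control 8 (adjusted p = 0.0974) and with run code in the fit (adjusted p = 0.0867), and Spn was called negative without control 2, 12 or 14 (adjusted p 0.0156 to 0.0358) and by DESeq2 (-0.31, adjusted p = 0.0283). Without controls 2, 8, 10 and 12, Cd44 (0.35, adjusted p = 0.0791) and Cd48 (0.21, adjusted p = 0.195) were not called. With total count scaling Cd44, Selplg and Cd48 were not called (adjusted p = 0.112, 0.16 and 0.176), and Spn was called negative (-0.43, adjusted p = 0.0366). Of the 13392 genes tested, 28.3% were called, 13.7% positive and 14.6% negative. For each of the 9 genes, both separate slopes of this fit had larger errors than their difference. With the lymphoid level held in the fit, Cd300a was the only gene of the 9 whose own myeloid slope was called (0.44 ± 0.11, adjusted p = 0.035), and no lymphoid slope of the 9 was called with the myeloid level held (lowest adjusted p 0.213, for Cd84).

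Taken as separate classes, the neutrophil genes gave 6 calls over all libraries, and the monocyte genes gave 0, or 3 when values were centred within run codes. On log2 levels, 6 of the 9 genes correlated with the neutrophil level after adjustment over all 12717 genes, of which 13.9% were called positive. Pearson's r was 0.90 for Cd53, 0.89 for Cd300a, 0.84 for Cd97, 0.75 for Cd48, 0.75 for Selplg and 0.67 for Cd44 (n = 16, two-sided permutation p 1e-05 to 0.00564, adjusted p 3.29e-04 to 0.0294, 1e-05 being the smallest that 100000 permutations can give). Spearman's rho was 0.75 to 0.93 for these genes (permutation p 1e-05 to 0.00129, adjusted p at most 0.0117). Left without controls 8 and 14, the libraries farthest from the median neutrophil level, r was 0.64 to 0.90 (permutation p at most 0.0131), and centred within run codes it was 0.73 to 0.92. Without controls 2, 8, 10 and 12, Cd97, Cd300a and Cd53 were called, beside 8.33% of all genes called positive, and Selplg (r = 0.74, permutation adjusted p = 0.0527), Cd48 (r = 0.66, adjusted p = 0.123) and Cd44 (r = 0.52, adjusted p = 0.278) were not. Ptprc had r = 0.42 (adjusted p = 0.231), Cd84 r = 0.14 (adjusted p = 0.765) and Spn r = -0.57 (permutation p = 0.0223, adjusted p = 0.0784).

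Without centring, the other classes gave fewer relations. With the monocyte level r was 0.69 for Cd97, 0.64 for Cd300a and 0.62 for Selplg (rho 0.63 to 0.74, permutation p 0.00375 to 0.0112 for r, adjusted p = 0.313 for each), against 0.34 for Cd53 and 0.27 for Cd48. By permutation none of the 9 was called, nor was any of the 12717 genes, though 1794 had an unadjusted permutation p under 0.05 and edgeR called 6 genes for a monocyte level used alone. Centred within run codes, Cd97 (r = 0.74, adjusted p = 0.0289), Selplg (r = 0.70, adjusted p = 0.0375) and Cd300a (r = 0.68, adjusted p = 0.0491) were called with the monocyte level, beside 4.16% of all genes called positive. Permutations of centred values take no account of the degrees of freedom used by centring, so the p-values of all centred calls, here and below, are too small. Controls 15 and 16 were alone in their runs, so centring sets their values to 0. With the T cell level, Cd53 had r = -0.69 (permutation p = 0.00319, adjusted p = 0.0399, rho = -0.62 with adjusted p = 0.0919), which was -0.40 without controls 4 and 8 (permutation p = 0.155), so that it rests on these libraries, and -0.72 centred within run codes. For the T cell level 4.8% of genes were called negative. Centred, 6 of the 9 genes were called negative with it (Cd84, Cd300a, Cd53, Cd97, Cd44 and Cd48, r -0.75 to -0.60), beside 14.1% of all genes. With the B cell level r ran from -0.66 (Cd300a) to 0.46 (Spn), and none of the 9 was called, beside 3.13% of all genes. Centred, 6 were called negative with it (Cd300a, Cd97, Selplg, Cd53, Cd44 and Ptprc, r -0.82 to -0.65), beside 13.9% of all genes. Neither with nor without centring was any called with the NK cell level (r -0.24 to 0.31, 0.0865% of all genes called) or the erythroid level (r -0.26 to 0.11, 6.39% of all genes called). Over the 9 levels and 9 genes, 20 of 81 relations had an adjusted p under 0.05, of which 6 each were with the myeloid, lymphoid and neutrophil levels. Over all genes, 13.6% were called positive with the myeloid level and 13.1% negative with the lymphoid level by this test. The number of 20 was 8 without controls 2, 8, 10 and 12, and 34 centred within run codes. Over all genes, the shares called positive with the myeloid level, negative with the lymphoid level and positive with the neutrophil level moved too. They were 8.17%, 3.8% and 8.33% without controls 2, 8, 10 and 12, and 17.9%, 18.7% and 18.3% centred.

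**Figure D3:**
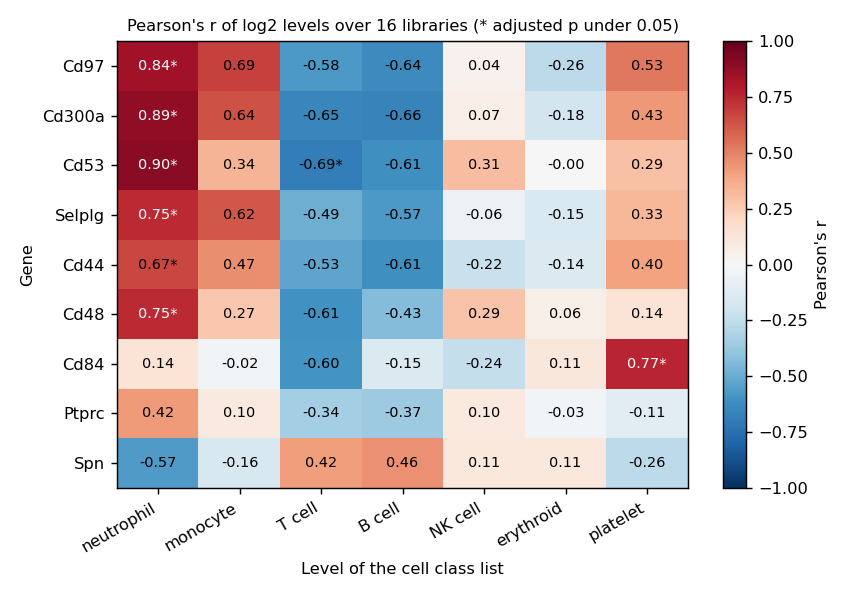
Pearson's r of the log2 level of each gene (rows) with the level of 7 cell class lists (columns) over 16 libraries, from -1 (blue) to 1 (red), with an asterisk for a permutation adjusted p under 0.05. The neutrophil column holds 6 asterisks, the platelet column 1 (Cd84, 0.77) and the T cell column 1 (Cd53, -0.69).

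Cd84, which is also carried by platelets, was called with the platelet level and not with the neutrophil level. It was also called negative with the T cell level centred within run codes (r = -0.75, permutation adjusted p = 0.0112, which centring makes too small). By edgeR it was called negative for a T cell level used alone (slope -0.40, adjusted p = 0.0449). Whether it differed in this from the other 8 genes was not tested. Its r with the platelet level was 0.77 (n = 16, permutation p = 0.00047, adjusted p = 0.018), where 3.18% of genes were called positive, and rho was 0.70 (permutation p = 0.00333, adjusted p = 0.0935). Control 10 was lowest both in Cd84, at 93.4 normalized counts, and in the platelet level, at 7.88 against a median of 11.08. The platelet genes Pf4 and Itga2b were also lowest there, at 5424 and 954.3 normalized counts. Without controls 10 and 12, the libraries farthest from the median platelet level, r was 0.60 (permutation p = 0.0233), and centred within run codes it was 0.88. Without controls 2, 8, 10 and 12 r was 0.45 (permutation p = 0.144, adjusted p = 0.801). The highest values of Cd84 were in control 8 (640.6) and control 2 (366.9), the libraries with the highest liver levels, and r of Cd84 with the liver level was 0.59 over all libraries (permutation p = 0.0188, adjusted p = 0.287, rho = 0.34) and 0.27 without these libraries. The part of the liver genes in the values of Cd84 was not tested. The slope of Cd84 on the myeloid level, 0.11, was -0.16 without control 8.

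Spn had slopes of the opposite sign to those of the 6 genes, but none of its slopes passed edgeR's test over all 16 libraries. Its 4 lowest libraries were controls 8, 12, 15 and 9, with 293.1, 388.4, 401.9 and 520.4 normalized counts, of which controls 8, 9 and 15 were among the 4 highest in the neutrophil level. Control 14 had the other high neutrophil level, 14.05, and 812.6 normalized counts of Spn, above its median. Without control 14 the slope of Spn on the myeloid level was -0.33 (edgeR adjusted p = 0.0362), and its slope on the lymphoid level was 0.34 (adjusted p = 0.0431). Its r with the myeloid level was -0.52 (permutation p = 0.0389, adjusted p = 0.121), and -0.17 without controls 6 and 8. Its r with the lymphoid level was 0.55 (permutation p = 0.0279, adjusted p = 0.0827, rho = 0.40), and 0.17 without controls 7 and 8. Ptprc was called with no level over all libraries. Centred within run codes, it was called with the B cell level (r = -0.65, permutation adjusted p = 0.0328, which centring makes too small). The slope of Ptprc on the lymphoid level turned from -0.057 to 0.083 when libraries were scaled by total count.

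**Figure D4:**
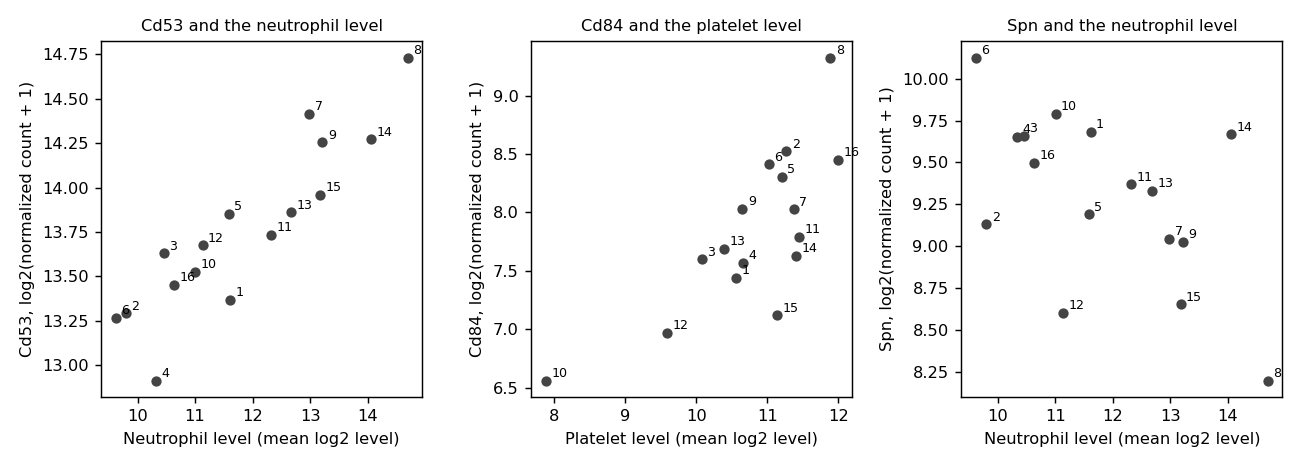
Log2(normalized count + 1) of Cd53 and of Spn against the neutrophil level, and of Cd84 against the platelet level, with each of the 16 libraries marked by its control number. Cd53 rises along the neutrophil level (r = 0.90), Cd84 is lowest in control 10 and highest in control 8 (r = 0.77), and Spn has r = -0.57 (not called) with control 14 above the others of high neutrophil level.

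Between the genes, 7 of 36 pairs had an adjusted p under 0.05, all positive. Each pair was adjusted over the genes tested against the gene that comes first in the opening list. Which pairs were called depended on this order. Adjusted over the genes tested against Cd53, with a pseudocount of 10, 4 of the other 8 genes were called positive and 1 negative. In that setting 13.09% of all genes were called positive and 13.15% negative. With TMM-scaled CPM 4 were called positive and 0 negative, beside 13.02% and 11.86% of all genes. The tightest pair was Cd48 and Cd53, with r = 0.94 and rho = 0.93 (n = 16, both permutation p = 1e-05, adjusted p = 0.0024 and 0.00397). This r was 0.88 without controls 4 and 8, and 0.93 centred within run codes. Of all genes, 8.25% were called positive against Cd48. Cd97 was tied to Selplg (r = 0.88, rho = 0.87, permutation p = 2e-05 for both, adjusted p = 9.12e-04 and 0.00254), to Cd300a (r = 0.87, rho = 0.81, adjusted p = 0.00197 and 0.00718) and to Cd44 (r = 0.65, rho = 0.67, adjusted p = 0.0384 and 0.0379), where 12.7% of genes were called positive. Cd300a was also tied to Cd44 (r = 0.87, rho = 0.88, adjusted p = 0.00848 and 0.00615, with 6.25% of genes called positive against Cd44), Selplg (r = 0.86, rho = 0.78, adjusted p = 0.00106 and 0.00791) and Cd53 (r = 0.77, rho = 0.79, adjusted p = 0.00542 and 0.00495), with 13.7% of genes called positive against Cd300a. Across these 7 pairs r was 0.59 to 0.88 when the 2 libraries farthest from the median of the first gene were left out, and 0.67 to 0.93 centred within run codes.

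Pairs outside this group were looser. Cd48 and Cd53, although both called against the neutrophil level, had r = 0.26 and 0.48 with Selplg (adjusted p = 0.557 and 0.18) and 0.40 and 0.61 with Cd97 (adjusted p = 0.271 and 0.0536). Cd48 and Cd84, both of the SLAM family, had r = 0.24 (adjusted p = 0.594), and their start sites lie 142 kb apart on chromosome 13 of build GRCr8. Spn had a negative r with each of the other 8 genes, from -0.65 (Cd44, adjusted p = 0.0569) to -0.14 (Selplg). None was called with adjustment against the first gene of the pair. Spn and Cd53 had r = -0.63 (permutation p = 0.00953, adjusted p = 0.1045 over the genes tested against Spn). Adjusted over the genes tested against Cd53, with a pseudocount of 10, 1 of the other 8 genes was called negative, and 1 was when centred within run codes. With TMM-scaled CPM 0 were, beside 11.9% of all genes. Without controls 2, 8, 10 and 12 also 0 were, beside 5.79% of all genes. Only Spn had a negative r with Cd53. Centred within run codes, Spn and Cd44 were called (r = -0.63, permutation adjusted p = 0.04, which centring makes too small), beside 11.4% of genes called negative against Cd44. With the other 8 genes Ptprc had no r above 0.39. Without controls 2, 8, 10 and 12, 4 of the 36 pairs were called, namely Cd48 with Cd53 and Cd97, Cd300a and Selplg with each other.

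**Figure D5:**
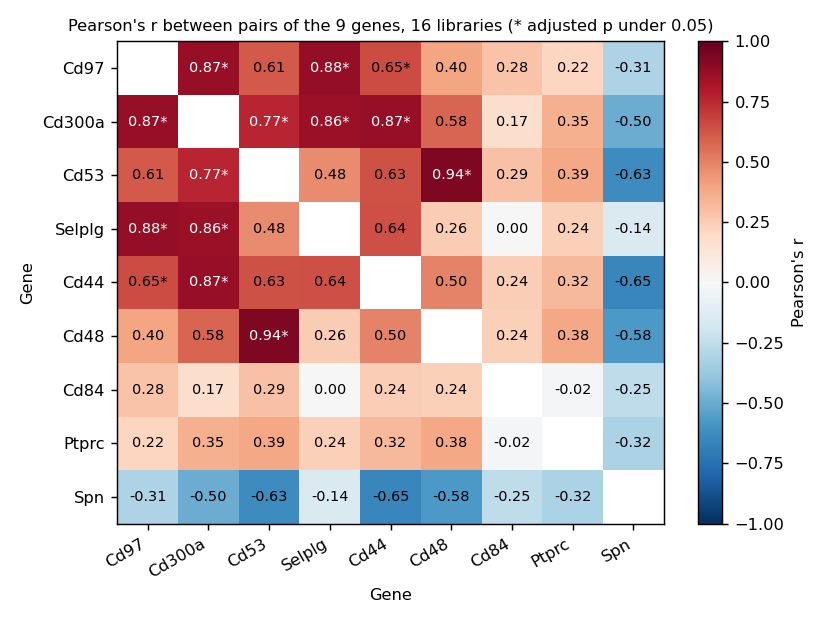
Pearson's r of log2 levels for each pair of the 9 genes over 16 libraries, from -1 (blue) to 1 (red), with an asterisk for a permutation adjusted p under 0.05. Cd97, Cd300a, Selplg and Cd44 form a block with r from 0.64 (Selplg with Cd44, not called) to 0.88, and Cd48 and Cd53 a pair at 0.94. The pair is not apart from the block, since Cd53 has r = 0.77 with Cd300a (called), 0.63 with Cd44 and 0.61 with Cd97 (not called). The row of Spn is negative throughout.

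The genes whose log2 level was most like each of the 9 were sought among 8332 genes with a symbol, a mean of at least 100 normalized counts and no place in the neutrophil, monocyte, T cell or B cell lists, and are given as a description over the 16 libraries. Cd97 was most like Myadm, a myeloid-associated membrane gene (r = 0.97), Csf2ra, a chain of the GM-CSF receptor (r = 0.96), and Xpo6, a nuclear exporter of actin (r = 0.96). Cd300a was most like Ifngr1, the interferon gamma receptor (r = 0.98), the homeobox gene Hlx (r = 0.98) and C5ar1, the receptor for complement C5a (r = 0.98). Selplg was most like RGD1304884, Rasgrp4 and Tle3 (r = 0.96 for each). Cd44 was most like Fuca1, a lysosomal fucosidase (r = 0.94), Ncf4, a subunit of the phagocyte oxidase (r = 0.91), and Ctsh, which encodes cathepsin H (r = 0.91).

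Cd53 was most like Gdi2 (r = 0.98), Capza2 (r = 0.97) and Pdcd10 (r = 0.97), and Cd48 was most like Ppp6c, Capza2 and Cd53 itself (r = 0.94 for each). Capza2, an actin capping subunit, thus stood near both. Cd84 was most like Nin (r = 0.86), Tesc (r = 0.85) and Gp6, the platelet collagen receptor (r = 0.85). Spn was like Phf15 (r = 0.93) and Fyn, a Src family kinase (r = 0.88). Ptprc had the loosest neighbours, Epc2 (r = 0.79), Nfat5 (r = 0.76) and Acat3 (r = 0.76).

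The partners of these proteins were examined as 7 lists in the joint fit, with the same contrast of myeloid minus lymphoid slope. Of 62 partner genes tested, 20 were called positive and 13 negative, against 13.7% positive and 14.6% negative of all genes tested in this fit. For PSGL-1, 6 of 12 tested genes of the selectin and glycosylation list were positive and 2 negative, with a median difference of 0.23. Selp, which encodes P-selectin, the main ligand of PSGL-1 on platelets and vessel wall, differed by 1.43 ± 0.24 (edgeR adjusted p = 3.48e-04), with 49.4 normalized counts at the lowest, in control 3, a median of 204.2 and 1653 at the highest, in control 11. The sialyltransferase gene St3gal4 differed by 1.07 ± 0.12 (adjusted p = 5.5e-06). St3gal6, another sialyltransferase gene, was negative at -0.34 ± 0.1 (adjusted p = 0.0201), as was Tpst1, a tyrosine sulfotransferase gene, at -0.39 ± 0.1 (adjusted p = 0.0113). Sele, which encodes the endothelial E-selectin, was at 0 counts in 15 libraries, where the smallest detectable amount of 3 counts is 0.0962 to 0.14 CPM, and at 1.47 normalized counts in control 12.

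For CD97, 2 of 7 tested genes were positive and 1 negative, the latter near the share over all genes of 14.6%. Its ligand Cd55, a regulator of complement, differed by 0.65 ± 0.11 (edgeR adjusted p = 4.05e-04), and its lowest value was 243.4 normalized counts in control 4, its median 483.9 and its highest 1791 in control 8. Gpr97, another adhesion receptor, differed by 1.07 ± 0.15 (adjusted p = 5.3e-05), and Lphn1, a latrophilin, by -0.33 ± 0.11 (adjusted p = 0.0361). Of the SLAM list, to which Cd48 and Cd84 belong, 0 of 10 were positive and 3 negative, with a median of -0.17. Over all genes 14.6% were called negative. Slamf1 had -0.29 ± 0.085 (adjusted p = 0.0174) and Slamf6 -0.19 ± 0.065 (adjusted p = 0.0377), opposite in sign to Cd48. None of the 10 was called with run code in the fit or without controls 2, 8, 10 and 12. In both settings Cd48 was not called either. For CD300A, 2 of 5 were positive and 0 negative, Cd300lf at 0.47 ± 0.14 (adjusted p = 0.0206) and Ptpn6, which encodes the phosphatase SHP-1, at 0.31 ± 0.075 (adjusted p = 0.00605).

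For CD44, 3 of 7 genes of the list of hyaluronan receptors and linkers were positive and 2 negative. Moesin (Msn) differed by 0.26 ± 0.051 (edgeR adjusted p = 0.00128) and Hyal2, a hyaluronidase gene, by 0.38 ± 0.098 (adjusted p = 0.00873), while radixin (Rdx) had -0.24 ± 0.075 (adjusted p = 0.028) and merlin (Nf2) -0.33 ± 0.06 (adjusted p = 9.35e-04). Of 13 tetraspanins, to which Cd53 belongs, 3 were positive and 2 negative, near the shares over all genes of 13.7% and 14.6%. Cd63, a tetraspanin of granules and lysosomes, differed by 0.93 ± 0.1 (adjusted p = 6e-06) and Tspan14 by 0.3 ± 0.048 (adjusted p = 2.37e-04), with Tspan32 at -0.33 ± 0.056 (adjusted p = 3.85e-04) and Tspan3 at -0.24 ± 0.054 (adjusted p = 0.00362). For CD45, 4 of 8 partners were positive and 3 negative. The myeloid Src family kinase Fgr differed by 0.77 ± 0.062 (adjusted p = 3.76e-07), and the coreceptors Cd4 and Cd8a of T cells by -0.38 ± 0.085 (adjusted p = 0.00348) and -0.28 ± 0.074 (adjusted p = 0.0105), while Ptprc itself was not called.

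Not all of these calls held in other fits. Of the positive partner genes named, Gpr97, Cd55, St3gal4, Selp, Cd63 and Fgr kept their call and direction with DESeq2 size factors, with total count scaling, with run code in the fit, without control 8 and without controls 2, 8, 10 and 12, and Cd300lf, Ptpn6, Msn, Hyal2 and Tspan14 did not keep it in all of these. Of the 11 negative ones 3 did so, namely Nf2, Tspan32 and Cd4. No named partner gene changed its sign. With total count scaling 0 genes of the CD300 list and 0 of the hyaluronan list were called positive. The number of partner genes called was 33 of 62, beside 28.3% of all genes tested. Without controls 2, 8, 10 and 12 it was 17 of 62, beside 12.1% of all genes tested.

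Promoter sequences from RefSeq were found for 7 of the 9 genes. Of these, Cd97 and Cd300a were taken from the wider block and Cd48 and Cd53 as the tightest pair. Not all 4 moved together, since Cd97 and Cd48 had r = 0.40 (permutation adjusted p = 0.271). The 250 bases before the start of these 4 genes, each called positive with the myeloid level over all libraries, are printed. They are read 5′ to 3′ in the direction of transcription from build GRCr8, at chr19:41303388-41303637 (plus strand) for Cd97, chr10:100428576-100428825 (plus strand) for Cd300a, chr13:86717744-86717993 (plus strand) for Cd48 and chr2:197087897-197088146 (minus strand) for Cd53. Capitals mark matches to a motif on either strand.
Cd97: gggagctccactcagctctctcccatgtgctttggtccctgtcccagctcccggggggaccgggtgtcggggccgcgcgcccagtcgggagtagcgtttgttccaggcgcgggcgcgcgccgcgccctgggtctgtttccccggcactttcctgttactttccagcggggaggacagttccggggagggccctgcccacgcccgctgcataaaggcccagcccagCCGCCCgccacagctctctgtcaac
Cd300a: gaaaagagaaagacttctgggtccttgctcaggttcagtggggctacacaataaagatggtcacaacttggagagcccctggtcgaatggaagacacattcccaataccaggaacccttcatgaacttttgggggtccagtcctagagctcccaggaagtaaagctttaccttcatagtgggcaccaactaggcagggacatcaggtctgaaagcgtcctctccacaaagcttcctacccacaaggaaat
Cd48: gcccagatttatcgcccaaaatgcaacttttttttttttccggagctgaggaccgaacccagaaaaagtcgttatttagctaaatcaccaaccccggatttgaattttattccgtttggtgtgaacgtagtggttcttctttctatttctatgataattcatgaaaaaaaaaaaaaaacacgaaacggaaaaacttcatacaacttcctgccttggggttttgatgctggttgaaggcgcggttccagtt
Cd53: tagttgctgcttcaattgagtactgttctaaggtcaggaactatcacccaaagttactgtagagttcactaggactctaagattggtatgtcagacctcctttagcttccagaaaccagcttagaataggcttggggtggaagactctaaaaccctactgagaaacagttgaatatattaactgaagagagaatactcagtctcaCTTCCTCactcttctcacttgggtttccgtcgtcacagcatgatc
The motifs searched on both strands, over 250 bases before and 50 after the start, were GAGGAAG for PU.1, CCGGAAG for ETS factors, TGTGGTT for RUNX, TTGCGNA for C/EBP and GGGCGG for the GC box, of which the PU.1 and ETS motifs share the letters GGAAG. Among the 7 genes, Cd53 had 1 match to the PU.1 motif on the opposite strand, beginning 45 bases before the start, and Cd97 had 1 match to the GC box on the opposite strand, beginning 25 bases before the start. Of the 33469 promoters of this length, 12.4% held the PU.1 motif and 33.1% the GC box, and 8.75%, 5.57% and 4.61% held the ETS, RUNX and C/EBP motifs, which had no match in these windows. The G and C content of the 250 bases was 70% for Cd97, 49.6% for Cd300a, 42.4% for Cd53 and 39.2% for Cd48.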

How the data were processed

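RNA-seq of globin-depleted whole blood was analysed for 16 saline control rats. Reads were clipped, aligned with Bowtie 0.12.9 to an Ensembl transcriptome of rat build rn5 and counted per gene with RSEM 1.2.0, which divides reads shared between transcripts, and the authors deposited the estimated counts without normalization. Estimated counts were rounded. Totals of 21466776 to 31189549 counts limit precision, 3 counts being the floor in a library, which covers counting error only. Samples were grouped by their label. Counts of every pair of libraries differed by more than sampling noise (lowest chi-square per degree of freedom 45.0, controls 11 and 13). Run codes A to F come from file names, and the labels do not say what they stand for. The codes served as batches. The study repeated its experiment at several dates, and whether the codes follow those dates was not tested. Centring within the codes can thus also remove differences between experiments.

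Slopes on the class levels were fitted with edgeR 4.0.16 in R 4.3.3 (TMM scaling, filterByExpr, glmQLFTest) over all 18031 genes listed in every file, with p-values adjusted over all genes tested outside the 4 marker lists that make the levels. The SE is the slope divided by the square root of F. Correlations used log2(DESeq2-normalized count + 1), DESeq2 1.42.0 and 100000 two-sided permutations (Python 3.11.15, numpy 2.4.6), adjusted over all genes tested. For a pair of genes, adjustment was over the genes tested against the first of them in the opening list, so the pairs called depend on that order. Tested on simulated counts for 12595 genes, the myeloid fit recovered 10%, 66%, 92% and 98% of genes changed by 1.2, 1.5, 2 and 3-fold per SD, with 5 false calls. The simulation drew genes independently, changed 50 genes at each fold and took the level as given. In the data 21.1% of genes were called and genes varied together. The 5 false calls therefore do not cover calls that depend on scaling. Partner genes named are the 2 per list and direction with the lowest p among those called, plus Cd55, Selp and Sele. The 3 genes most like each of the 9 were named by r. Some genes that these rules name are not reported here. The 9 genes, the lists and the tests were chosen with earlier results of these data known. Alternatives were other scalings, no filter, DESeq2, run code in the fit, globin genes left out, other level definitions and libraries left out. For the partner lists they were chosen after seeing the data. The replacement of outlying values described in the study was not applied.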

Additional observations from a re-analysis of the deposited data

How the results depend on the processing

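With total count scaling the number of the 9 genes called was 3 against the myeloid level, 1 against the lymphoid level (Spn) and 4 in the joint fit (3 positive and 1 negative), in place of 6 each, the slope of Ptprc turned to 0.083 on the lymphoid level and to -0.044 in the joint fit, 906 genes in all were called against the myeloid level in place of 2689, and the share of positive calls among all calls went from 64.9%, 56.1% and 48.4% to 92.8%, 86.5% and 28.1% in the 3 fits. The median slope of all genes moved from -0.054 to -0.16 in the joint fit. Run code in the fit moved the positive share to 42.3% (lymphoid) and 59.5% (joint). Of the lists used alone, neutrophil genes gave 6 calls, monocyte genes 0 (6 genes in all), T cell genes 3 (1625 in all, against 3609) and B cell genes 0 (700 in all, 53.9% positive). Without controls 2, 8, 10 and 12 the calls were 4, 1 and 4 (1317, 432 and 1558 genes in all, 92.3%, 26.6% and 80.4% of them positive, against 3788 for the joint fit), and the slopes of Cd84 turned to -0.18 (myeloid), 0.035 (lymphoid) and -0.13 (joint). Without control 8 they turned to -0.16, 0.029 and -0.11, and 1722, 1911 and 2432 genes were called in all. Leaving out 1 library at a time gave 5 to 7, 4 to 7 and 5 to 7 calls, and Cd97, Cd300a, Cd53 and Cd44 kept their calls in each of these, while the slopes of Cd84 ran from -0.16 to 0.18 (myeloid), -0.34 to 0.029 (lymphoid) and -0.11 to 0.26 (joint). Of the 81 relations with class levels 20 were called, 34 after centring within run codes and 8 without controls 2, 8, 10 and 12. Among the 36 pairs the numbers were 7, 11 and 4 in the same order. The p-values behind the centred numbers are too small. The share of all genes called positive moved too. It went from 13.6% to 17.9% and 8.17% with the myeloid level, and from 12.7% to 18.1% and 4.45% against Cd97. Of the partner genes 33 were called, and 17 without the 4 libraries, beside 28.3% and 12.1% of all genes tested. No paired analysis was possible because the labels give 1 group. The causes of these shifts were not tested.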

Other observations

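Across run codes the levels of the 9 genes overlapped. Cd97 covered 9141 to 21700 normalized counts in the 3 libraries of run A, 8665 to 31656 in the 5 of run B and 7675 to 28992 in the 4 of run D, with medians of 9430, 12224 and 22645. Selplg had medians of 2545, 3931 and 5324 in the same runs, and Ptprc 24568, 26649 and 23251. These values are a description, since no test of the runs was made for these genes.

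The platelet, NK cell and erythroid lists were also placed in the joint fit of myeloid minus lymphoid slope, where none of their 10, 8 and 9 genes was called by edgeR and 1, 1 and 0 had an unadjusted p under 0.05. The median difference was 0.30 for the platelet genes, 0.052 for the NK cell genes and -0.01 for the erythroid genes, beside -0.054 over all genes tested. On the lymphoid level alone 1 of the 10 platelet genes was called, with a negative slope.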
